A study of Mus musculus with 2 samples.

Results

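Heat shock proteins and the other molecular chaperones are read on this array by 221 of its 45101 probe sets, which name 93 genes of 18193. They were chosen by gene symbol: probe sets whose annotation gives 1 symbol alone, from the HSP90, HSP70 and HSP110, J-domain (Dnaja, Dnajb, Dnajc), BAG, small heat shock protein, HSP60 and HSP10, and CCT families, with the heat shock factors and 5 HSP90 co-chaperones. Symbols that begin with Hspb also brought in Hspbp1 and Hspbap1, proteins that bind heat shock proteins. Hspa5 and Dnajb9, which belong to the endoplasmic reticulum stress response, were left out. Of the single symbols in that choice, Hsf1 has no row here and was not analysed.

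Liver RNA of a Tmprss6-deficient mouse (Tmprss6-/-, made by gene targeting) was set against that of a control mouse on an Affymetrix whole-genome array, 1 array per genotype. Both were males of 3 months on a 129Sv/C57BL6 background, fasted overnight, and the labels call the second animal only a control. Tmprss6 encodes matriptase-2, a membrane protease of hepatocytes that restrains the iron hormone hepcidin. Its probe set read 88.1 in the Tmprss6-deficient liver and 1868 in the control liver. The sources used here do not say whether those probes lie in the deleted part. Of 7 hepatocyte markers, the 6 named on the array read between 6933 and 32902 in the Tmprss6-deficient liver and between 10190.2 and 35972 in the control liver, all within 1.5-fold.

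Chaperones bind unfolded or partly folded proteins and keep them from aggregating. HSP70 proteins do so in a cycle driven by ATP, in which J-domain proteins deliver the client and speed ATP hydrolysis, and HSP110 and BAG proteins help release the nucleotide. HSP90 acts later on clients such as steroid receptors and kinases, with co-chaperones that pass clients on or set its ATPase rate. Small heat shock proteins hold unfolded clients without ATP, and the barrel-shaped chaperonins, HSP60 with HSP10 in mitochondria and CCT (also called TRiC) in the cytosol, fold them in a closed cavity. Under heat and other protein-damaging stress, heat shock factor 1 induces many of the cytosolic members by binding heat shock elements, inverted repeats of GAA and TTC units, in their promoters.

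The promoters of 6 members are shown here because they hold such elements, 4 from genes that were 1.5-fold or more higher in the Tmprss6-deficient liver and 2 from genes within 1.5-fold. Each stretch is RefSeq sequence of 200 bases, 170 before the transcription start and 30 after it, written 5′ to 3′ on the gene's strand. Capitals mark each pair of adjoining units, GAANNTTC or TTCNNGAA. Both are the same on the reverse strand, and neighbouring pairs can overlap.
Hsph1, GRCm38.p6 chr5:149636286-149636485, minus strand: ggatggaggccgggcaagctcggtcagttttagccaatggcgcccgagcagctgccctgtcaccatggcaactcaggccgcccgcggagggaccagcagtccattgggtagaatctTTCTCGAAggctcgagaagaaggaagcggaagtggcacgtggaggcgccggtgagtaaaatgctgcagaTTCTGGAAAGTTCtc
Hspb1, GRCm38.p6 chr5:135887749-135887948, plus strand: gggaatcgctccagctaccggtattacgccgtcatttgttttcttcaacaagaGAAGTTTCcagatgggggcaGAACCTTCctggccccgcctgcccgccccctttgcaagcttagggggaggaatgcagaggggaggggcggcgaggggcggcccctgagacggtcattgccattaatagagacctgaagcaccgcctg
Hspa1b, GRCm38.p6 chr17:34959209-34959408, minus strand: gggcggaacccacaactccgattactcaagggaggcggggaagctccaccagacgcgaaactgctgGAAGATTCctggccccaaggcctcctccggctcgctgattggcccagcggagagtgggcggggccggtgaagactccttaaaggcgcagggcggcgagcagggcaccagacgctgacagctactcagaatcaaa
Hspb8, GRCm38.p6 chr5:116422835-116423034, minus strand: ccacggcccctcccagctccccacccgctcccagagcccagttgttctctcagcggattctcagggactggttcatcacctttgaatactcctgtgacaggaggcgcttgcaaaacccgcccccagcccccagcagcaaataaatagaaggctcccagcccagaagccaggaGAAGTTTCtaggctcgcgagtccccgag
Chordc1, GRCm38.p6 chr9:18292097-18292296, plus strand: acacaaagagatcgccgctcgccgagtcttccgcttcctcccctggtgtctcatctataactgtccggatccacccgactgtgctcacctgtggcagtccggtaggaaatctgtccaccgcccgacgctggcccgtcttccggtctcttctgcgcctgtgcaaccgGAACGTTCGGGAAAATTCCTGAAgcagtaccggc
Hspd1, GRCm38.p6 chr1:55087903-55088102, minus strand: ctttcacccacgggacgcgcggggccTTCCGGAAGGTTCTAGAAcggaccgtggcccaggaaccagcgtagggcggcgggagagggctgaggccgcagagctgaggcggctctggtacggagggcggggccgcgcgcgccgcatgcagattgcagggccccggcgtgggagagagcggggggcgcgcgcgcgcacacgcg

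In Hsph1 the capitals after the start run over 3 units, in Chordc1 over 5 and in Hspd1 over 4, while Hspb1 has 2 separate pairs and Hspa1b and Hspb8 have 1 each. The Hspa1a promoter entry shares 296 of its 300 bases, compared position by position, with that of its neighbour Hspa1b and has its pair at the same place, 104 bases before the start. Hspd1 and Hspe1 lie head to head, and the same elements stand in both of their promoter entries. RefSeq promoters of 300 bases (250 before the start and 50 after) were matched for 77 of the 93 members. A pair of units was present for 23 of these 77 (29.9%), against 4587 of 27025 genes in the table (17.0%), and 3 adjoining units for 5 of 77 (6.49%), against 179 genes (0.662%). Among the members 1.5-fold or more higher, 6 of 13 had a pair and 1 had 3 units, and among those within 1.5-fold 15 of 51 had a pair and 4 had 3 units. These matches describe letters in a fixed window and were set against no binding data.

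Chaperone genes were more often higher than lower in the Tmprss6-deficient liver. Values are the authors' MAS5 signals, a linear measure of hybridisation, and ratios are Tmprss6-deficient over control. A gene is read on its brightest probe set, and signals under a floor of 17.8, the median of all probe sets, were raised to it. Of the 93 genes, 75 passed the floor on both arrays, 5 on the Tmprss6-deficient array alone, none on the control array alone and 13 on neither. Of the 80 above it on at least 1 array, 14 were higher by 1.5-fold or more, or 17.5%, where 8.86% of all 12243 named genes above the floor were. Lower by that much were 2 of the 80, or 2.5%, against 9.2% of all genes. Positive log2 ratios were found for 56 of the 80 and for 49.5% of all genes, and the medians were 0.15 and -0.0050. Since 5 of the 80 entered only through the Tmprss6-deficient array, the 75 were also counted alone. Of these, 13 were higher and 2 lower, against 7.51% and 8.42% of all 10243 genes read on both arrays, and their median was 0.13. With the arrays scaled to their median instead, 10 of the 80 were higher, against 7.31% of all genes. Hsp90aa1, Hspa1b, Stip1 and Hspb8 then lay within 1.5-fold.

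Because each genotype has 1 array, no test was possible, and every ratio compares 2 animals. What error there is comes from genes read by several probe sets, whose log2 ratios differ among themselves, and it holds nothing of the variation from animal to animal. This probe set SD was 0.46 at mean signals under 64, 0.37 up to 256, 0.32 up to 1024 and 0.18 beyond. Bright chaperone genes, where that spread is smaller, also held more higher than lower members. At a mean signal of 256 or more, 7 of 42 chaperone genes were higher (16.7%) and 0 were lower, against 3.7% and 4.74% of 3437 named genes. These 7 include Hsp90aa1, Hspa1b, Stip1 and Hspb8, which lay within 1.5-fold with the arrays scaled to their median, so the count depends on the scaling.

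**Figure D1:**
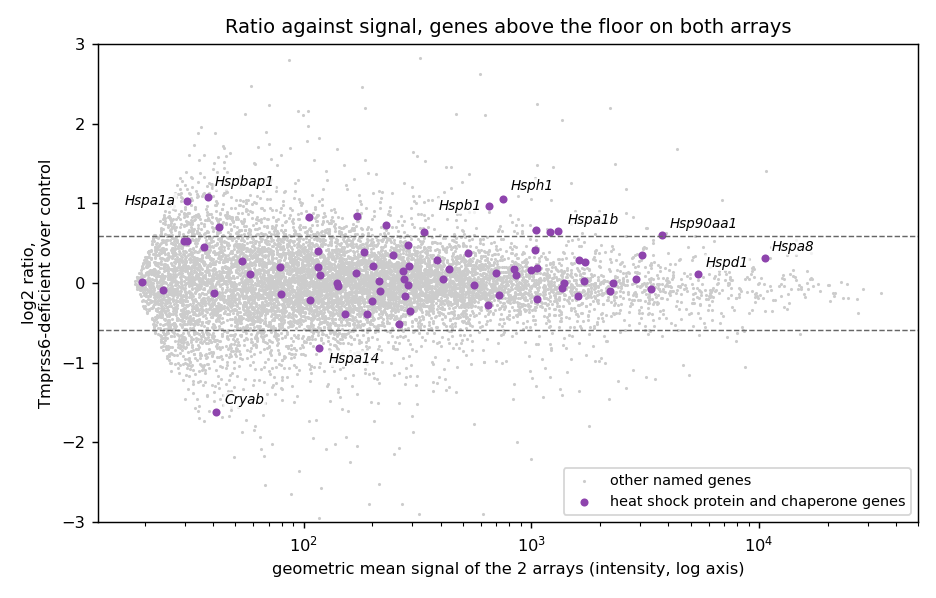
Log2 ratio, Tmprss6-deficient over control, against the geometric mean signal of the 2 arrays (log axis) for genes above the floor on both arrays, 1 point per gene; dashed lines mark 1.5-fold, and 7 other genes lie outside the plotted range of 3 either way. The chaperone genes, in purple, lie mostly above 0, and those 1.5-fold or more lower, Cryab and Hspa14, both have a mean signal under 256.

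Over single probe sets the picture was the same. Of 158 chaperone probe sets past the floor on both arrays, 30 were higher by 1.5-fold or more and 5 lower, against 9.62% and 7.97% of 17433 probe sets with 1 symbol. That is 19.0% and 3.16% of the chaperone sets. Of the members, 44 had at least 2 such sets, and the 2 brightest shared a direction in 32 (72.7%), against 60.8% of all named genes with a second set. For the members 1.5-fold or more higher, this held in 8 of 9, against 74.4% of all named genes that much higher. Dnajb12 was the exception.

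**Figure D2:**
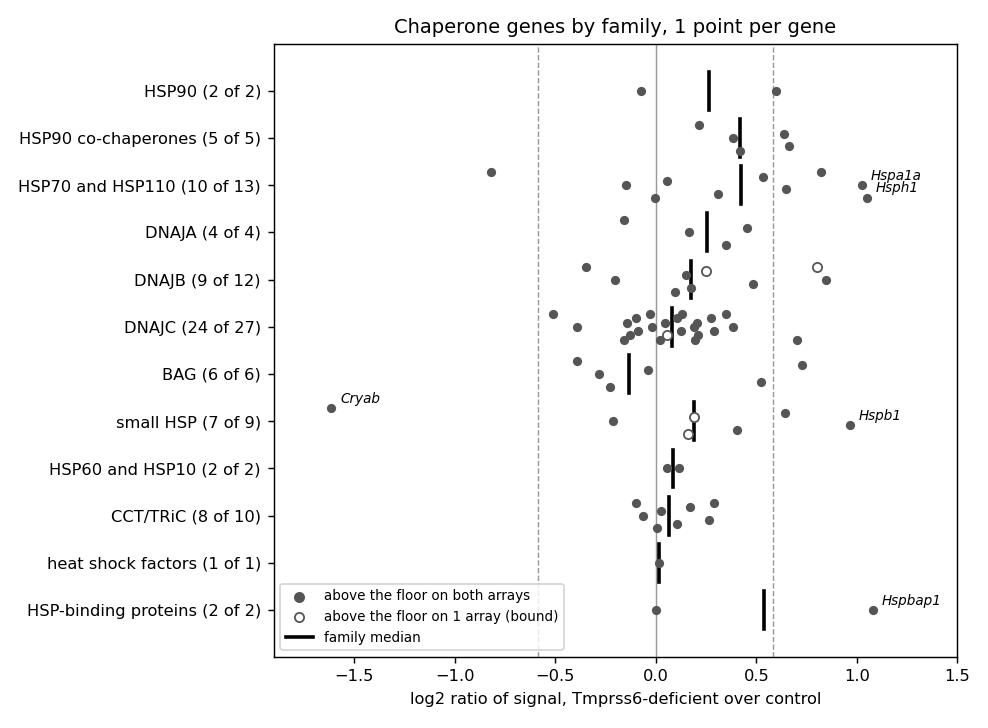
Log2 ratio of signal, Tmprss6-deficient over control, for each chaperone gene above the floor on at least 1 array, by family, with the number of such genes of all family members beside the family name; black bars are family medians and dashed lines mark 1.5-fold. The HSP90 co-chaperones lie wholly right of 0, while the CCT and HSP60 and HSP10 families lie within 1.5-fold.

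Among HSP70 and HSP110 genes, the stress-inducible members were higher and the mitochondrial one was level. Hsph1, which encodes HSP105, a nucleotide exchange factor of HSP70, read 1082 in the Tmprss6-deficient liver and 523 in the control liver, 2.07-fold higher. Its second probe set read 445.9 in the Tmprss6-deficient liver and 168.3 in the control liver, 2.65-fold higher, so its log2 ratios of 1.05 and 1.41 were each over 3 times the probe set spread at that signal.

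The inducible cytosolic HSP70 gene Hspa1b read 1642, 1199.5 and 897 on its 3 probe sets in the Tmprss6-deficient liver, against 1048, 715 and 476 in the control liver. All 3 sets were higher, by 1.57, 1.68 and 1.88-fold. Hspa1a, its neighbour and near-identical copy, read 43.5 in the Tmprss6-deficient liver and 21.4 in the control liver, 2.03-fold higher at a dim signal. Probes for either gene can bind transcripts of both, so the 2 cannot be separated here.

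Hspa4l, a relative of HSP110, read 140.8 in the Tmprss6-deficient liver and 79.6 in the control liver, 1.77-fold higher. All 5 of its probe sets were higher, 4 of them by 1.5-fold or more, between 1.06 and 2.82-fold. The constitutive HSP70 gene Hspa8 read 11818 in the Tmprss6-deficient liver and 9530.1 in the control liver, 1.24-fold higher. Its other bright sets had log2 ratios of 0.44 and 0.60, while a dim set pointed the other way, at 42.4 in the Tmprss6-deficient liver and 107.1 in the control liver. The brightest Hspa8 set and the one at 0.44 are of a kind that can bind other transcripts.

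Of the other HSP70 relatives, Hspa14 passed 1.5-fold downward and the other measured ones lay within it. Hspa9, the mitochondrial HSP70 known as mortalin, read 2288 in the Tmprss6-deficient liver and 2295 in the control liver, and its second set 1571 in the Tmprss6-deficient liver and 1530.0 in the control liver. A dim set of Hspa9 was 1.01 higher on the log2 scale. Hspa14, an HSP70-like protein that works with the J-protein Dnajc2 at the ribosome, read 88.0 in the Tmprss6-deficient liver and 155.2 in the control liver, 1.76-fold lower. Its dimmer set was lower as well, by a log2 ratio of -0.39, and Dnajc2 had a log2 ratio of -0.10. Log2 ratios were 0.53 for Hspa2, 0.056 for Hspa13 and -0.15 for Hspa4, with the probe sets of Hspa13 and of Hspa4 in disagreement. Hspa12a, Hspa12b and Hspa1l were below the floor on both arrays. Over 10 measured genes of the family, 4 passed 1.5-fold upward and 1 downward, against 8.86% and 9.2% of all named genes above the floor. The 4 include Hspa1a and Hspa1b, which cannot be separated here. The family median was 0.42. It was 0.18 with a higher floor (the 70th percentile) and 0.056 over plain probe sets alone.

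**Figure D3:**
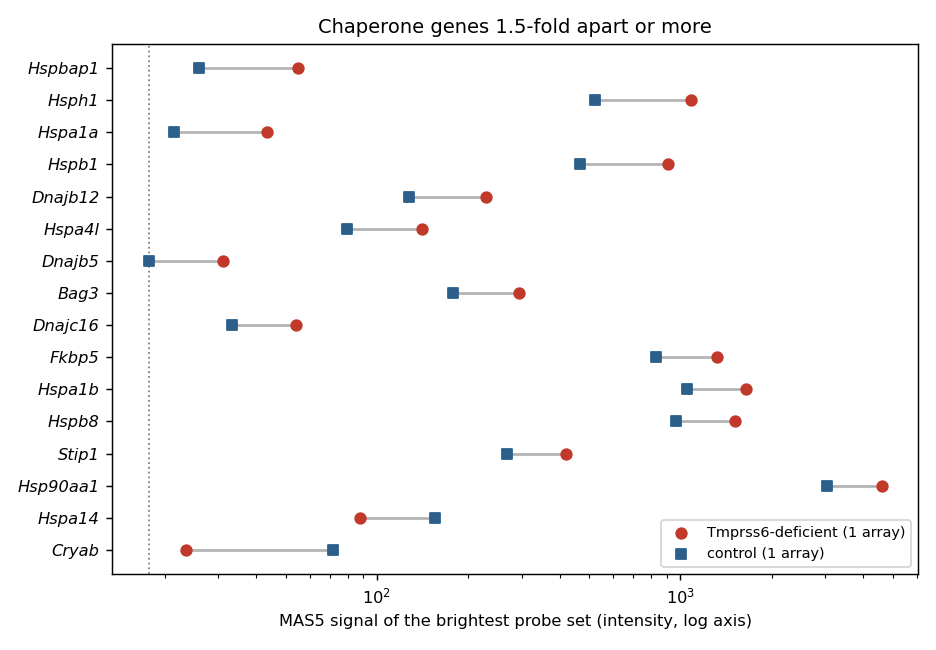
Signal of the brightest probe set on each array (log axis) for the 16 chaperone genes that were 1.5-fold or more apart, with the Tmprss6-deficient liver as red circles and the control liver as blue squares; the dotted line is the floor of 17.8. Hspa14 and Cryab are the genes whose red point lies left of the blue one.

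The cytosolic HSP90 gene Hsp90aa1 and 2 of 5 HSP90 co-chaperone genes were 1.5-fold or more higher, while the HSP90 gene of the endoplasmic reticulum lay within 1.5-fold. Hsp90aa1, the inducible cytosolic form, read 4609.7, 1924 and 1775 on 3 probe sets in the Tmprss6-deficient liver, against 3044, 1033 and 1023 in the control liver. It was higher on all 3, by 1.51, 1.86 and 1.73-fold, and its other 2 sets were below the floor. Hsp90b1, which encodes GRP94 of the endoplasmic reticulum, read 3260.0 in the Tmprss6-deficient liver and 3431 in the control liver. The cytosolic gene Hsp90ab1 has no row in this choice and was not analysed here.

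All 5 co-chaperone genes had a positive log2 ratio, with a median of 0.42. Of these, 2 passed 1.5-fold upward, against 8.86% of all named genes above the floor. Fkbp5, an immunophilin of steroid receptor complexes that glucocorticoids are known to induce, read 1318 and 443.2 on 2 sets in the Tmprss6-deficient liver, against 832.1 and 225.8 in the control liver. It was 1.58-fold and 1.96-fold higher. Stip1, the adaptor that passes clients between HSP70 and HSP90, read 419.2 in the Tmprss6-deficient liver and 269 in the control liver, 1.56-fold higher.

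The other co-chaperones lay within 1.5-fold. Ahsa1, which activates the HSP90 ATPase, read 1200.7 in the Tmprss6-deficient liver and 897.1 in the control liver, with a dim set in the opposite direction (19.9 in the Tmprss6-deficient liver, 29.9 in the control liver). Chordc1, a zinc-binding HSP90 partner, read 600.8 in the Tmprss6-deficient liver and 461 in the control liver, a log2 ratio of 0.38. Fkbp4 had a log2 ratio of 0.21. A list of 10 other glucocorticoid-induced genes had a median log2 ratio of -0.35, or -0.17 with the mean of all probe sets of each gene, and of these Mt2 passed 1.5-fold upward and Dusp1 downward. The list held 4 positive and 6 negative log2 ratios. Of all named genes above the floor, 8.86% were 1.5-fold or more higher and 9.2% lower. Tat and Pck1, enzymes that glucocorticoids induce in liver, had log2 ratios of -0.56 and -0.38. Zbtb16, Klf9 and Sgk1 had log2 ratios of 0.51, 0.35 and 0.23, with the sets of Zbtb16 and of Klf9 in disagreement.

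Small heat shock protein genes were split between both directions. Hspb1, which encodes HSP25, read 909.9 and 589 on its 2 probe sets in the Tmprss6-deficient liver, against 466.3 and 376 in the control liver. It was higher on both, by 1.95 and 1.57-fold, though the dimmer set is of a kind that can bind other transcripts. Hspb8 read 1513, 390 and 71 on its 3 sets in the Tmprss6-deficient liver, against 968, 229.7 and 64.6 in the control liver. Its log2 ratios were 0.64, 0.76 and 0.14, all in one direction.

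Bag3, the partner of Hspb8 in a complex that sends aggregated proteins to autophagy, was also higher, at 294.7 in the Tmprss6-deficient liver and 177.8 in the control liver, 1.66-fold on its only set. Of the other BAG genes, Bag2 had a log2 ratio of 0.52 and Bag1, Bag4, Bag5 and Bag6 had ratios between -0.39 and -0.037. Bag1, a nucleotide exchange factor of HSP70, read 585.8 in the Tmprss6-deficient liver and 711.2 in the control liver. Bag4 read 183.7 in the Tmprss6-deficient liver and 215.2 in the control liver, with its sets in disagreement.

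Cryab, which encodes alpha-B-crystallin, went the other way. It read 23.4 in the Tmprss6-deficient liver and 71.6 in the control liver, 3.06-fold lower on the 1 set above the floor on both arrays. Another set passed the floor in the Tmprss6-deficient liver alone (21.4, against 16.3 in the control liver), and the remaining set was below it on both arrays, so the probe sets of Cryab do not share a direction. Cryab is known from lens, muscle and stellate cells. Most listed markers of smooth and striated muscle and stellate cells were lower beside it. Of 9 such genes, 6 passed 1.5-fold downward and 0 upward, against 9.2% and 8.86% of all named genes above the floor. The summed signal of the 9 was 249.8 in the Tmprss6-deficient liver and 1239 in the control liver. Des was level, at 48.8 in the Tmprss6-deficient liver and 46.6 in the control liver. Acta1 and Ckm passed the floor in the control liver alone, so they were at least 1.47 and 1.34-fold lower. Acta2 read 89.2 in the Tmprss6-deficient liver and 514.2 in the control liver, and the smooth muscle genes Myh11 and Tagln were below the floor in the Tmprss6-deficient liver (1.8 and 16) and above it in the control liver (70.6 and 176.4). Their part in the Cryab value was not tested, and in whole tissue fewer cells of a type and less RNA per cell cannot be told apart.

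The remaining small heat shock protein genes were dim or level. Hspb11, an intraflagellar transport protein despite its name, had a log2 ratio of 0.40. Hspb6 had a log2 ratio of -0.21, and Hspb2 and Hspb3 were just above the floor in the Tmprss6-deficient liver alone (20.3 and 19.9). Hspb7 and Hspb9 were below the floor on both arrays. Over the 7 measured genes the median log2 ratio was 0.19, and over the 5 above the floor on both arrays it was 0.40.

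J-domain genes were mostly close between the animals. Of 43, 37 were measured, and 3 of these passed 1.5-fold upward and 0 downward, with a median log2 ratio of 0.13. Of all named genes above the floor, 8.86% were that much higher, a share close to that of the J-domain genes, and 9.2% were lower. Dnaja1, a cytosolic partner of HSP70, read 3468, 1994 and 1512 on 3 sets in the Tmprss6-deficient liver, against 2722, 1653 and 1263 in the control liver. Its log2 ratios of 0.35, 0.27 and 0.26 did not pass 1.5-fold, yet each was above the probe set spread of 0.18 at that signal. Dnaja2 read 1515 in the Tmprss6-deficient liver and 1693 in the control liver, and the mitochondrial Dnaja3 read 1056 in the Tmprss6-deficient liver and 942.9 in the control liver. Dnaja4 had a log2 ratio of 0.46 at a dim signal.

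Dnajb1, the HSP40 that heat shock induces, differed between its probe sets. The brighter read 286.9 in the Tmprss6-deficient liver and 258.9 in the control liver, and the other 260.4 in the Tmprss6-deficient liver and 176.2 in the control liver, log2 ratios of 0.15 and 0.56. Dnajb12, a J-protein of the endoplasmic reticulum membrane, was 1.80-fold higher on one set (228.9 in the Tmprss6-deficient liver, 127.4 in the control liver) and level on the other (66.1 in the Tmprss6-deficient liver, 67.7 in the control liver). Dnajb5 read 31 in the Tmprss6-deficient liver and 17.7, just under the floor, in the control liver, and so was at least 1.74-fold higher. A further Dnajb5 set was above the floor in the control liver alone, in the opposite direction. Among the rest, Dnajb6 read 982.7 in the Tmprss6-deficient liver and 1129 in the control liver, and Dnajb4 read 462.8 in the Tmprss6-deficient liver and 409.3 in the control liver. Dnajb2 had a log2 ratio of 0.48.

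Dnajc16 was the one of 24 measured Dnajc genes past 1.5-fold. Its 2 sets read 54.3 and 49.4 in the Tmprss6-deficient liver, against 33.4 and 28.5 in the control liver. It was 1.63-fold higher on the brighter, at a signal where the probe set spread of 0.46 is close to the log2 ratio of 0.70. The family median was 0.082, and the lowest value was that of Dnajc1, at -0.51 on its brightest set with its sets in disagreement. Dnajc22 read 727.8 in the Tmprss6-deficient liver and 664.1 in the control liver, and Dnajc15, a J-protein of mitochondrial import, read 551.3 in the Tmprss6-deficient liver and 562.4 in the control liver. The J-protein Dnajc12, a partner of the aromatic amino acid hydroxylases, had a log2 ratio of 0.35.

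Among further J-protein genes of the endoplasmic reticulum, Dnajc3 and Dnajb11 lay within 1.5-fold. Dnajc3, known as p58IPK, read 1130.4 in the Tmprss6-deficient liver and 989.9 in the control liver, with its 5 sets in disagreement. Dnajb11 read 260.1 in the Tmprss6-deficient liver and 330.9 in the control liver. Outside the family choice, Hspa5, the HSP70 of this compartment, read 4722 in the Tmprss6-deficient liver and 5626 in the control liver, and Dnajb9 read 1223 in the Tmprss6-deficient liver and 1163 in the control liver. A list of 11 further chaperones of the compartment had a median log2 ratio of -0.0011, all within 1.5-fold. Of all named genes above the floor, 8.86% were higher by that much and 9.2% lower.

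Measured chaperonin genes all lay within 1.5-fold, as did most named genes that bright. At a mean signal of 256 or more, 3.7% of all named genes were higher by that much and 4.74% lower. Hspd1, which encodes mitochondrial HSP60, read 5614 in the Tmprss6-deficient liver and 5185 in the control liver, and its partner Hspe1 read 2941 in the Tmprss6-deficient liver and 2828 in the control liver. The 8 measured genes of the cytosolic CCT ring had a median log2 ratio of 0.065, and 0 passed 1.5-fold either way. They lay between -0.098 for Cct6a and 0.29 for Cct4. Cct6a read 2132 in the Tmprss6-deficient liver and 2282 in the control liver, Cct3 read 1883 in the Tmprss6-deficient liver and 1567 in the control liver, and Cct2 read 1719.9 in the Tmprss6-deficient liver and 1690.4 in the control liver. Cct4 was higher on each of 6 sets that passed the floor on both arrays, with log2 ratios from 0.23 to 0.67. Cct6b and Cct8l1 were below the floor on both arrays. Hspd1 is the gene whose promoter stretch printed above holds 4 adjoining units.

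**Figure D4:**
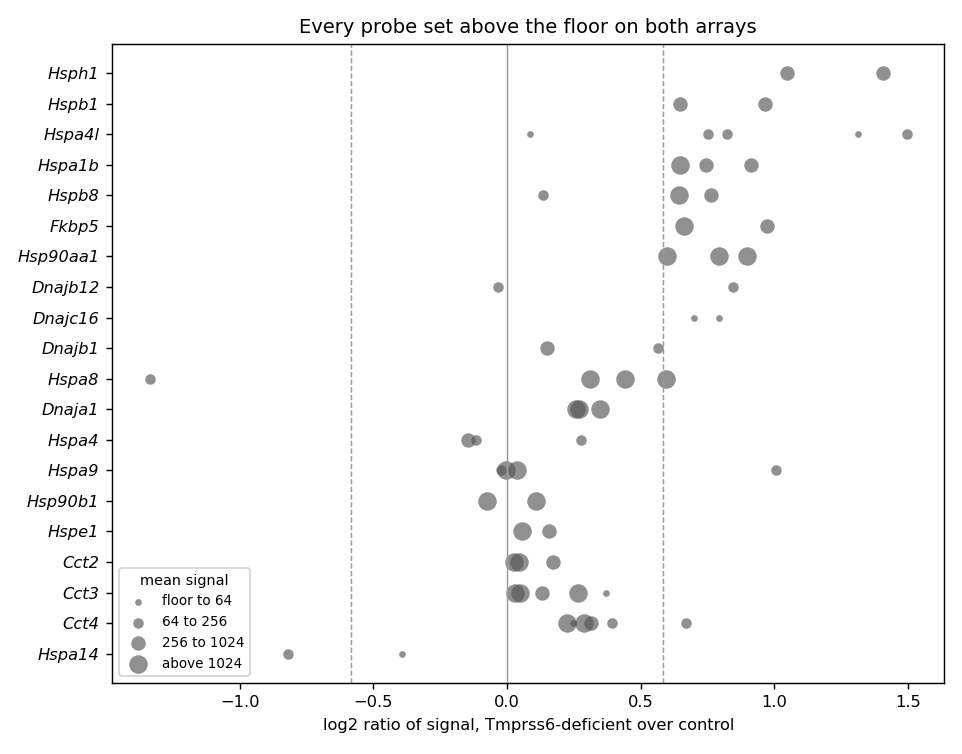
Log2 ratio of every probe set above the floor on both arrays for 20 chaperone genes with at least 2 such sets, 1 point per set, sized by its mean signal; dashed lines mark 1.5-fold. All sets of Hsph1, Hspb1, Hspa1b, Fkbp5 and Hsp90aa1 lie right of the upper line, and the bright sets of Hspa9, Hsp90b1, Hspe1 and Cct2 lie near 0.

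The regulator gene Hsf2 was at the floor, at 19.6 in the Tmprss6-deficient liver and 19.4 in the control liver. Hspbp1, a nucleotide exchange factor of HSP70, read 140.3 in the Tmprss6-deficient liver and 140.1 in the control liver. Hspbap1, a protein that binds HSP27, read 54.9 in the Tmprss6-deficient liver and 26 in the control liver, 2.11-fold higher. That value comes from 1 set of the kind that can bind other transcripts, and its other 3 sets were below the floor.

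Partners outside these families differed little. Of 16 named prefoldin subunits and HSP90 or HSP70 partners, 0 passed 1.5-fold, and the median log2 ratio was -0.072. Of all named genes above the floor, 8.86% were that much higher and 9.2% lower, so a list of this length would hold few. Pfdn4, a subunit of prefoldin, which hands actin and tubulin to CCT, had the lowest value, -0.55. Of 8 mitochondrial chaperones and proteases outside the families, only Clpx passed 1.5-fold, at 2591 in the Tmprss6-deficient liver and 1439.9 in the control liver, 1.80-fold higher. Clpx encodes the unfoldase of the ClpXP protease. Of 8 other genes that heat shock factor 1 is known to induce, Mt2 was 4.57-fold higher. The other 7 lay within 1.5-fold on their brightest set, and the list median was 0.20. The sets of Mt1 were in disagreement, with a log2 ratio of -0.065 on the brightest and 3.26 on the other. Mt2 responds to metals and glucocorticoids as well. Hmox1, Dedd2 and Ier5 had log2 ratios of 0.16, -0.25 and -0.066.

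Clock genes and the cold-inducible gene Cirbp also differed between these livers. Several chaperone genes are known to follow a daily rhythm in liver. Of 14 measured clock genes, 4 passed 1.5-fold upward and 4 downward, against 8.86% and 9.2% of all named genes above the floor. Among those lower, Ciart and Per3 passed the floor in the control liver alone, so their ratios are bounds. Arntl, the clock activator gene, read 128.7 in the Tmprss6-deficient liver and 38.3 in the control liver. Dbp, a clock output gene, read 76.4 in the Tmprss6-deficient liver and 696.5 in the control liver, 9.12-fold lower, and both of its sets were lower. Cirbp, the 1 gene of its kind named on the array of 2 listed, encodes a cold-inducible RNA-binding protein and read 50.3 in the Tmprss6-deficient liver and 97.2 in the control liver. The sources used here do not give sampling times, and the part of these differences in the chaperone values was not tested.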

How the data were processed

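Liver RNA of 1 mouse per genotype was read on 1 array each. Per the labels' protocols it was column-purified and biotin-labelled by in vitro transcription. The deposited values are MAS5 intensity signals (tool per the submitters' processing notes), with version and settings not given in the sources used here. Leaving out the lowest and highest 2%, the 2 deposited arrays have the same mean, and both were set to it here. The 64 control probe sets stayed out of the floor and of the genes.

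Genes were named through the platform annotation, and all 93 identifiers were found in the RefSeq table of GRCm38.p6, which changed 0 symbols. Members, families and lists were chosen with earlier results of these data known. Every member may be named. Both signals are printed for those 1.5-fold or more apart, for the 3 brightest measured genes of each family and for fixed stress-response genes. A measured gene passed the floor on at least 1 array, and one that passed on 1 alone has a bound. Sets of opposite sign are in disagreement. The probe set SD is that of the difference between a gene's 2 brightest sets, over the square root of 2, by their mean signal, for 4367 genes. The arrays correlated in log2 signal at r = 0.969 across 19894 probe sets, which are not replicates.

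The gene and ratio steps were tested on simulated arrays. No p-value is given, since the design allows none. Python 3.11.15, pandas 2.3.3 and statsmodels 0.14.6 were used. Alternatives were 4 scalings, 2 other floors, a pseudocount, 2 other ways to read a gene and the genes read on both arrays alone.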

Additional observations from a re-analysis of the deposited data

How the results depend on the processing

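The number of chaperone genes 1.5-fold or more higher was 14, and between 10 and 19 under the 10 alternatives. It was 10 of 80 with scaling to the median, where 7.31% of all measured genes were higher. With a floor at the 70th percentile of signals it was 10 of 68, against 5.34% of all genes. A floor at the 30th gave 19 of 87 measured genes, but 15.9% of all genes were then higher as well. Scaling to the median moved the median of all genes to -0.064 and that of the chaperones to 0.092, and Hsp90aa1, Hspa1b, Stip1 and Hspb8 then lay within 1.5-fold. With the floor at the 70th percentile 1 chaperone gene was lower, against 6.27% of all genes. The chaperone median log2 ratio was then 0.11 over 68 measured genes. Cryab, Dnajc16 and Hspbap1 lost 1.5-fold there (the signal of Cryab in the Tmprss6-deficient liver is then raised to the floor). Hspa1a and Dnajb5 were under that floor on both arrays and so had no ratio. With a pseudocount Dnajb5 and Dnajc16 lost 1.5-fold, and with the mean of all sets Hspb8 and Dnajb12 did. Just inside the threshold were Hsp90aa1 at 1.51-fold and Stip1 and Hspb8 at 1.56-fold, and just outside it Hspa2 at 1.45-fold and Bag2 at 1.44-fold. Of 398 values for 41 named genes, 385 moved by less than the probe set SD, 13 moved by more and 0 changed the sign of a gene past 1.5-fold. Many of these values could hardly move, so the count says little about robustness. Keeping only genes read on both arrays leaves each ratio as it was. Leaving out the scaling changes almost nothing, since the deposited arrays already share a trimmed mean, and other floors leave bright genes unchanged. Hspa8 read -1.34 over plain probe sets alone, which keep its dim set. No paired analysis was possible because each genotype has 1 array, and no array could be left out. The probe set SD is highest near the floor, and the number of arrays limits the precision of every ratio.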

Other observations

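Probe sets for Dnajc19, a mitochondrial J-protein, also name a pseudogene and were left out of the chaperone genes. The brightest read 689 in the Tmprss6-deficient liver and 647.8 in the control liver. The others read 36.2 and 64.8 in the Tmprss6-deficient liver, against 27.2 and 141.5 in the control liver, in opposite directions.

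Markers of further liver cell types were read as well. In the Tmprss6-deficient liver the summed signals were 44.3 for cholangiocytes and other epithelium, 973.1 for endothelium, 1588 for Kupffer cells, 151 for neutrophils, 161.3 for lymphocytes and 23.1 for adipocytes. In the control liver they were 132.1 for cholangiocytes and other epithelium, 1117 for endothelium, 2225 for Kupffer cells, 142.2 for neutrophils, 187.5 for lymphocytes and 34.9 for adipocytes. Such sums hide markers that went opposite ways. Positive and negative log2 ratios numbered 4 and 2 for endothelium, 2 and 4 for Kupffer cells, 2 and 2 for neutrophils and 2 and 1 for lymphocytes. For epithelium and adipocytes, 0 markers passed the floor on both arrays.

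Summed over the brightest sets of all 93 chaperone genes, the 13 below the floor included, the signal was 69622 in the Tmprss6-deficient liver and 60497 in the control liver. Over all 18193 named genes the sum was 5.50e+06 in the Tmprss6-deficient liver and 5.67e+06 in the control liver. The brightest genes weigh most in such sums.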
